A study of Homo sapiens with 9 samples.

Results

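The genes described here were 10 transcription factors and cofactors of the erythroid lineage, GATA1, GATA2, TAL1, LYL1, LMO2, LDB1, KLF1, ZFPM1, GFI1B and NFE2, of 20163 protein-coding genes annotated on hg19. They were chosen by name. For each gene the peaks of trimethylated histone H3 lysine 4 (H3K4me3, a mark of active promoters) within 1 kb of any annotated start were collected from each library, and the largest peak signal was taken as the level of the gene. A gene with no such peak was listed at 0. The 5 kb window around the starts was read beside it.

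The mark was mapped by CUT&RUN, in which an antibody directs a nuclease to cut out the DNA around the marked nucleosomes, in HEL cells, a human erythroleukemia line. The 9 libraries were 3 from cells with a non-targeting control (NTC) and 2 each from cells in which METTL3, METTL14 or WTAP was knocked out by CRISPR (METTL3-KO, METTL14-KO and WTAP-KO). METTL3, METTL14 and WTAP are subunits of the enzyme complex that writes N6-methyladenosine on mRNA, and the comparison asks how the promoter mark stood without each of them. The labels give no treatment or time, and they do not say whether the libraries of a group came from separate cultures or whether the KO cells were clones, so that p-values measure only the spread between these libraries, which may be technical.

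GATA factors bind DNA through zinc fingers. At many erythroid genes GATA1 sits in a complex in which TAL1 (or its close relative LYL1), a basic helix-loop-helix factor, binds a neighbouring E-box and is joined to GATA1 by the adaptor proteins LMO2 and LDB1. GATA2 occupies many of these sites in progenitors before GATA1 replaces it, and ZFPM1 (FOG1) is the cofactor that binds GATA1 directly. KLF1 binds CACCC sequences of globin and other red cell genes, GFI1B is a repressor and NFE2 is a subunit of a leucine zipper factor that acts at the globin locus. Several of the factors regulate each other's genes.

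The stretches of GRCh37 (hg19) reference sequence just upstream of 4 of these genes are shown because several of the factors act on each other's promoters, and because the genes differed in how their mark stood in the KO libraries. They lie at chrX:48644748-48644947 on the plus strand (GATA1), chr19:12998016-12998215 on the minus strand (KLF1), chr1:47697898-47698097 on the minus strand (TAL1) and chr3:128212045-128212244 on the minus strand (GATA2). Capitals mark matches, on either strand, to GATA letters (GATA with A or T before it and A or G after it), to E-box letters (CAGCTG, or CAGATG in either direction) or to the KLF letters CCNCNCCC, and overlapping matches run together.
GATA1: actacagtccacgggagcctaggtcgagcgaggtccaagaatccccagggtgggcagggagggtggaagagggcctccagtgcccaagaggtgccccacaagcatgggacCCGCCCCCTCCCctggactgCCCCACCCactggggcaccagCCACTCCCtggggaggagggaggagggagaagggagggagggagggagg
KLF1: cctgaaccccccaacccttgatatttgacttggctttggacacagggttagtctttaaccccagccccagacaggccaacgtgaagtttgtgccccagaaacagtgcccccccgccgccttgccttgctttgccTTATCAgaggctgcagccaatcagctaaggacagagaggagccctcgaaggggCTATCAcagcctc
TAL1: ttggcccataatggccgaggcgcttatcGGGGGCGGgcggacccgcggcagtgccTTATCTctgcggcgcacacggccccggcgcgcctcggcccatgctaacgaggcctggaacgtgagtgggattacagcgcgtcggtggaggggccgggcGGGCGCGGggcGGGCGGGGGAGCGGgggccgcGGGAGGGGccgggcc
GATA2: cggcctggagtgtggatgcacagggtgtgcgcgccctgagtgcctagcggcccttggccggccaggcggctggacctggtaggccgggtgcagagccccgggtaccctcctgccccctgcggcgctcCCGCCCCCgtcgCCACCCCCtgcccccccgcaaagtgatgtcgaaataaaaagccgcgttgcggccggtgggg

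Over the window from 250 bases before to 50 bases after the main start, GATA letters were found in 5 of the 10 genes (TAL1, LMO2, LYL1, KLF1 and GFI1B) and in 18.3% of 19881 promoters. The KLF1 window held 2 GATA matches, at 66 and 13 bases before its start (positions -66 and -13), and no KLF match. E-box letters were found in LMO2 and GFI1B, 2 of the 10, and in 26.2% of promoters. KLF letters were found in 8 of the 10 genes and in 69.6% of promoters, and the letters TGAGTCA, bound by NFE2, in none of the 10 and in 3.56% of promoters. A match describes the letters only. The windows also differed in their number of CpG dinucleotides, from 5 in LMO2, 6 in KLF1, 7 in GATA1, 9 in GFI1B and 10 in NFE2 to 47 in LDB1 and ZFPM1, with a median of 23 over all promoters.

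The files held 99358 peaks, from 21724 to 21941 in the NTC libraries, 9205 and 9369 in METTL3-KO, 3169 and 5286 in METTL14-KO and 3160 and 3673 in WTAP-KO. All lists held only peaks of 150 to 2000 bp, so that a missing peak need not be a missing mark. The lowest signals of each library (316 to 2194 values) were, within 0.1 of a step, whole multiples of a step whose origin was not stated, and this step was 1.14 to 1.32 in NTC, 0.461 and 1.07 in METTL3-KO and 0.320 to 0.440 in METTL14-KO and WTAP-KO. The step and the groups moved together, and its part in the results below was not tested beyond the alternative that divides by it. Among 7 erythroid and megakaryocytic markers, 6 had an NTC promoter peak and 3, GYPC and EPOR among them, had one in all 3 libraries. PF4, of megakaryocytes, had none in any library. Of 12 markers of other cell types 3, PAX5 and COL1A1 among them, had NTC peaks, summing to 4906 to 5528 in a library, with 0 in the KO libraries, and the other 9 were at 0 throughout. Their part in the results was not tested. Of the targeted genes, METTL3 had 6515, 9224 and 10067 at its promoter in NTC, 1095 and 915 in METTL3-KO, 400 and 0 in METTL14-KO and 0 in both WTAP-KO libraries. METTL14 had no peak in its own KO libraries and 3338 to 5174 in NTC, and WTAP had none in its own and 14470, 11067 and 0 in NTC. The files hold no expression, so this does not check the knockouts.

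Most of the 10 promoters were marked in NTC cells, fewer in METTL3-KO cells and at most 1 in each of the other KO libraries. Within 1 kb of a start 9 of the 10 genes had a peak in each NTC library, 6 and 4 with METTL3 knocked out, 1 and 0 in METTL14-KO and 1 and 1 in WTAP-KO. Over all protein-coding genes, 46.8% to 47.9% had a peak in the NTC libraries, 34.6% and 33.5% in METTL3-KO, 21.1% and 13.2% in METTL14-KO and 11.4% and 12.9% in WTAP-KO. With the 5 kb window the numbers of marked members were 10, 9 and 10 in NTC, 7 and 5 in METTL3-KO, 2 and 0 in METTL14-KO and 1 and 1 in WTAP-KO.

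**Figure D1:**
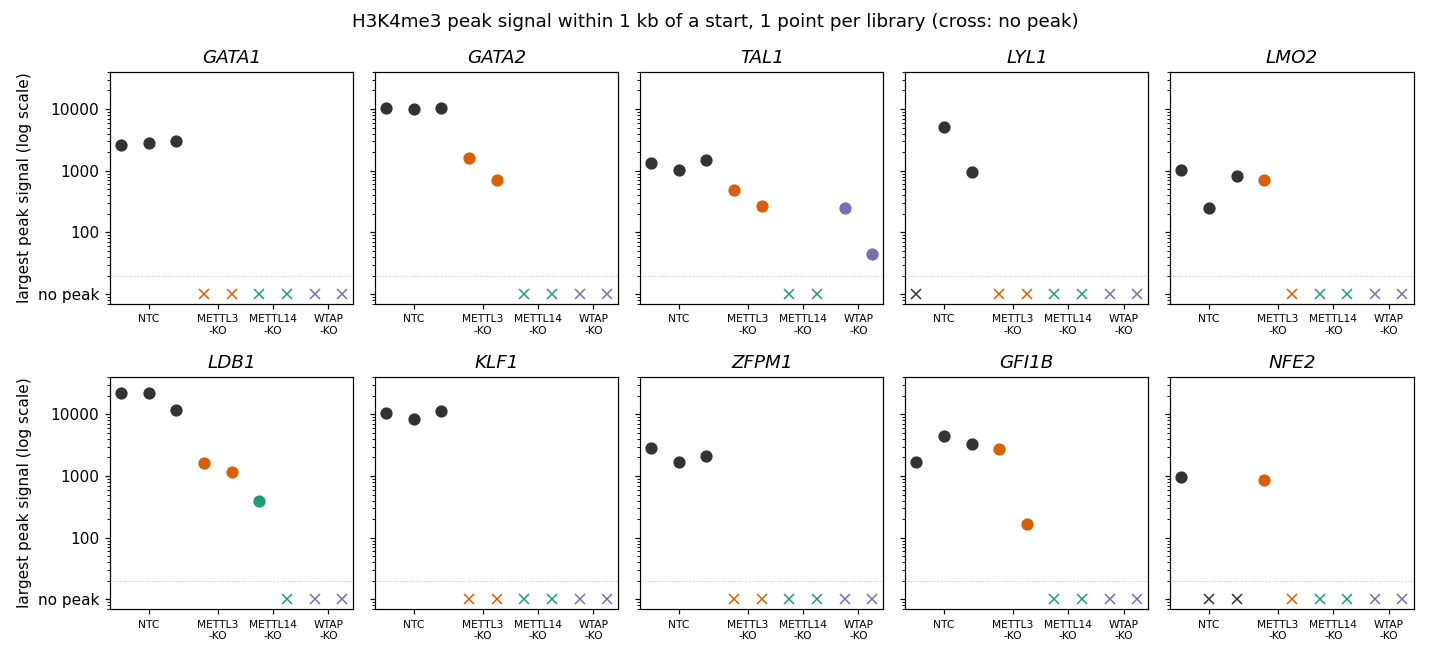
Largest H3K4me3 peak signal within 1 kb of a start (log axis) of each of the 10 genes in the 9 libraries, 1 point per library, with a cross where no peak was listed. GATA1, KLF1 and ZFPM1 have signals in the 3 NTC libraries and none in the 6 KO libraries, while GATA2, TAL1 and LDB1 have lower signals in both METTL3-KO libraries.

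Of the 10 genes, 9 were lower in the KO groups as a whole than in NTC by limma with an adjusted p under 0.05, where 73% of the 12037 genes tested were lower. In METTL3-KO 6 were lower (60.9% of all genes), in METTL14-KO 8 (68.8%) and in WTAP-KO 8 (69.7%), and none was higher in any of these comparisons, which share the NTC libraries. The median log2 change of the 10 against that of all genes was -5.63 against -5.30 over the KO groups, -3.45 against -3.48 in METTL3-KO, -6.37 against -5.57 in METTL14-KO and -6.37 against -5.97 in WTAP-KO. The share of these genes that fell was thus read as that of promoters at large, and nothing in it is called particular to them. Of the 8 genes with a peak in all 3 NTC libraries, 3 had none in METTL3-KO (46.3% of such genes), 7 none in METTL14-KO (73.3%), 7 none in WTAP-KO (84.9%) and 3 none in any KO library (45.8%).

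GATA1, the master regulator of red cell genes, had promoter signals of 2638, 2788 and 2982 in NTC (2803 ± 173, SD, n = 3) and no peak in any KO library. The groups did not overlap (limma adjusted p = 1.3e-08 for all KO groups and 6.1e-08 for METTL3-KO). With no KO peak, the gene was tested only through its NTC peaks and the KO values had no spread. The p thus rests on the spread between NTC libraries, moderated over all genes, and the size of the change on the pseudocount. The same holds below for LYL1, KLF1, ZFPM1, RCOR1 and EPOR. The gene lies at chrX:48644948-48652718 on the plus strand, and the peak at its starts covered chrX:48643545-48645482. Around it 4 more regions were called in NTC libraries. Here and below a region is the merged extent of overlapping peaks of all libraries, and its signal in a library is the sum of the peaks of that library in it, so that it can exceed the largest single peak. The upstream one, at chrX:48642320-48643398, outside the gene, had signals of 2903, 3660 and 2501, a range that overlapped that of the start region itself. A pair of regions inside the gene, starting 1854 and 2732 bp past a start, had NTC signals of 612 to 702 and of 478 to 2402. None of the 5 GATA1 regions had a KO peak.

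GATA2, the GATA factor of progenitors, had one of the strongest promoters of the set, with 10261, 10033 and 10363 in NTC (10219 ± 169, SD, n = 3), 1589 and 706 in METTL3-KO and no peak in METTL14-KO or WTAP-KO. The METTL3-KO mean was 11.2% of the NTC mean, 8.91-fold lower, and both METTL3-KO libraries lay below every NTC library (log2 change -3.23, SE 0.38, limma adjusted p = 0.000274). The place of the mark differed within the gene. The region over the main start, chr3:128211440-128213452, had 7851, 10401 (the sum of 2 peaks) and 10363 in NTC and no KO peak. The METTL3-KO peaks lay in the region at an internal start, chr3:128209419-128211030, 220 and 184 bp from a start, where NTC had 10261, 7097 and no peak, and in METTL3-KO replicate 2 also at chr3:128206363-128208342, over another internal start, with 635. The last region measured 1949 and 1979 bp in NTC replicates 1 and 2, just inside the limit of width, and was not listed in NTC replicate 3; whether a wider peak was dropped there was not tested.

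TAL1, the helix-loop-helix partner of the complex, had 1358, 1029 and 1495 in NTC (1294 ± 239, SD, n = 3), 496 and 266 in METTL3-KO, 249 and 45.5 in WTAP-KO and no peak in METTL14-KO. All KO libraries were below the NTC libraries, the METTL3-KO mean being 29.4% of the NTC mean, 3.40-fold lower (log2 change -1.73, SE 0.58, limma adjusted p = 0.0315). The METTL3-KO call was lost with signals divided by the step (adjusted p = 0.337) and without any 1 of the 3 NTC libraries (adjusted p from 0.0507 to 0.0813), and the replicate block gave 0.0506. These peaks were, however, at different places. The NTC signal came from a region inside the gene, chr1:47690293-47690961, 545 bp upstream of an internal start. The strongest NTC region of the locus lay outside the gene at chr1:47700710-47702277, 2813 bp from the nearest start, with 7061, 7830 and 10029. Neither had a KO peak.

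The KO peaks of TAL1 stood in regions where NTC had none. Both METTL3-KO libraries had a peak at chr1:47697321-47697584, over a start 510 bp downstream of the main one, and both WTAP-KO libraries had one in the region chr1:47694828-47695220, which covered the start at 2772 bp in replicate 2 and ended 112 bp from it in replicate 1. Another region inside the gene, chr1:47691698-47692269, had METTL3-KO peaks of 1586 and 188 and no NTC peak. Counting only peaks that span a start therefore turned the direction: TAL1 was then higher in METTL3-KO than in NTC by 3.71 on the log2(signal + 30.1) scale (SE 0.53, limma adjusted p = 0.00086), with NTC at 0, so that the size depends on the pseudocount. The p is limited too, since TAL1 was then tested only through its KO peaks and the NTC values had no spread.

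LYL1, the relative of TAL1, had no peak within 1 kb in NTC replicate 1, 5094 in replicate 2 and 971 in replicate 3, and none in any KO library. NTC and KO libraries overlapped at 0, and the limma adjusted p was 0.0393 for all KO groups but 0.0971 in METTL3-KO, 0.0952 in METTL14-KO and 0.0959 in WTAP-KO. The call for all KO groups was lost when any 1 KO library was left out (adjusted p from 0.0727 to 0.0768) and with the replicate block (0.135). Within 5 kb, where all 3 NTC libraries had a peak and no KO library did, LYL1 was lower in METTL3-KO (adjusted p = 9.7e-05), METTL14-KO (8.4e-05) and WTAP-KO (8e-05). The region over its start, chr19:13213543-13215316, was listed in NTC replicate 2 alone. At chr19:13212046-13212779, over an exon, the 3 NTC libraries lay closer, at 1042, 950 and 971. LYL1 had 8 NTC regions within 5 kb, the most of the 10 genes, and none had a KO peak.

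LMO2, the adaptor between TAL1 and LDB1, had 1044, 252 and 812 in NTC (702 ± 407, SD, n = 3), 697 and no peak in METTL3-KO, and none in METTL14-KO and WTAP-KO. METTL3-KO replicate 1 lay within the NTC range (limma adjusted p = 0.185 for METTL3-KO and 0.0141 for all KO groups, the latter rising to 0.0574 without NTC replicate 1 and 0.053 without NTC replicate 3). The METTL14-KO and WTAP-KO calls (limma adjusted p = 0.0198 and 0.0197) were lost without NTC replicate 1 (0.06 and 0.0601). They were also lost without NTC replicate 3 (0.0568 and 0.0567) and with peaks that span a start (0.454 and 0.473). Within 5 kb the groups did not overlap and LMO2 was lower in METTL3-KO (adjusted p = 0.0147). The NTC peaks were near an internal start, in the region chr11:33892069-33892874, over the start in replicate 1 and 490 and 374 bp from it in replicates 2 and 3. A stronger region inside the gene at chr11:33894587-33896710 had summed signals of 3862, 4106 and 4849 and no KO peak. The METTL3-KO peak was over the main start, 21548 bp from the internal one, at chr11:33913092-33913638, where no NTC library had a peak.

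LDB1, which bridges the complex to distant sites and is expressed in most tissues, had the highest NTC signals of the set, 22322, 21855 and 11666 (18614 ± 6022, SD, n = 3), then 1634 and 1168 in METTL3-KO, 389 and no peak in METTL14-KO, and none in WTAP-KO. The METTL3-KO mean was 7.53% of the NTC mean, 13.3-fold lower, with no overlap (log2 change -3.66, SE 1.07, limma adjusted p = 0.0191). This ratio mixes regions. The values of NTC replicates 1 and 2 came from a region over no start, and that of METTL3-KO replicate 1 from one upstream of the main start. The call was lost with signals divided by the step (adjusted p = 0.145), with summed peaks (0.0777) and without METTL3-KO replicate 2 (0.0889). The lower value of NTC replicate 3 reflected a region missing from its list, chr10:103872091-103874069, inside the gene, which was 1974 bp wide in both of the other NTC libraries. The adjoining region over an internal start, chr10:103874295-103875995, was called in all 3 NTC libraries (9716, 8669 and 11666), in both METTL3-KO libraries (1459 and 1168) and in METTL14-KO replicate 1 (389), and was the only one of the 54 regions of the set with peaks in all 3 NTC libraries and both METTL3-KO libraries. Around the main start, by contrast, only KO peaks were listed. They lay at chr10:103880066-103880368 over the start itself (823 in METTL3-KO replicate 1), at chr10:103880634-103880985 upstream (1634 and 875 in METTL3-KO) and at chr10:103879241-103879593 inside the gene (423 and 133 in METTL3-KO and 94.2 in METTL14-KO replicate 1).

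KLF1, the activator of adult globin, had 10347, 8488 and 11190 in NTC (10008 ± 1383, SD, n = 3) and no peak in any KO library (limma adjusted p = 1.4e-08 for all KO groups and 6.6e-08 for METTL3-KO). Its peak covered its only annotated start, at chr19:12996961-12998527, and ran on into the gene. The 5 kb window also held a region over a start of the neighbouring gene GCDH, chr19:13001415-13002365, with 6681, 6075 and 6930 in NTC. This region had a peak in METTL3-KO replicate 1 (2349) and in METTL14-KO replicate 1 (610). The mark at GCDH was thus listed in a pair of KO libraries in which the KLF1 start, 3400 bp away, had none, and with the 5 kb window the METTL3-KO call of KLF1 was lost (adjusted p = 0.053).

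ZFPM1, the GATA1 cofactor, had 2851, 1656 and 2134 in NTC (2214 ± 601, SD, n = 3) and no KO peak within 5 kb (limma adjusted p = 1.4e-07 for all KO groups and 6.8e-07 for METTL3-KO). With peaks below the median NTC signal left out, ZFPM1 was not called in METTL3-KO, METTL14-KO or WTAP-KO (limma adjusted p = 0.0933, 0.0957 and 0.0964). No peak spanned any of its starts. The signal lay just inside the gene, at chr16:88520473-88522141, with a weaker region upstream at chr16:88519058-88519473 (915, 1120 and 1313) and another further into the gene at chr16:88522156-88522832 (548, 997 and 1764).

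**Figure D2:**
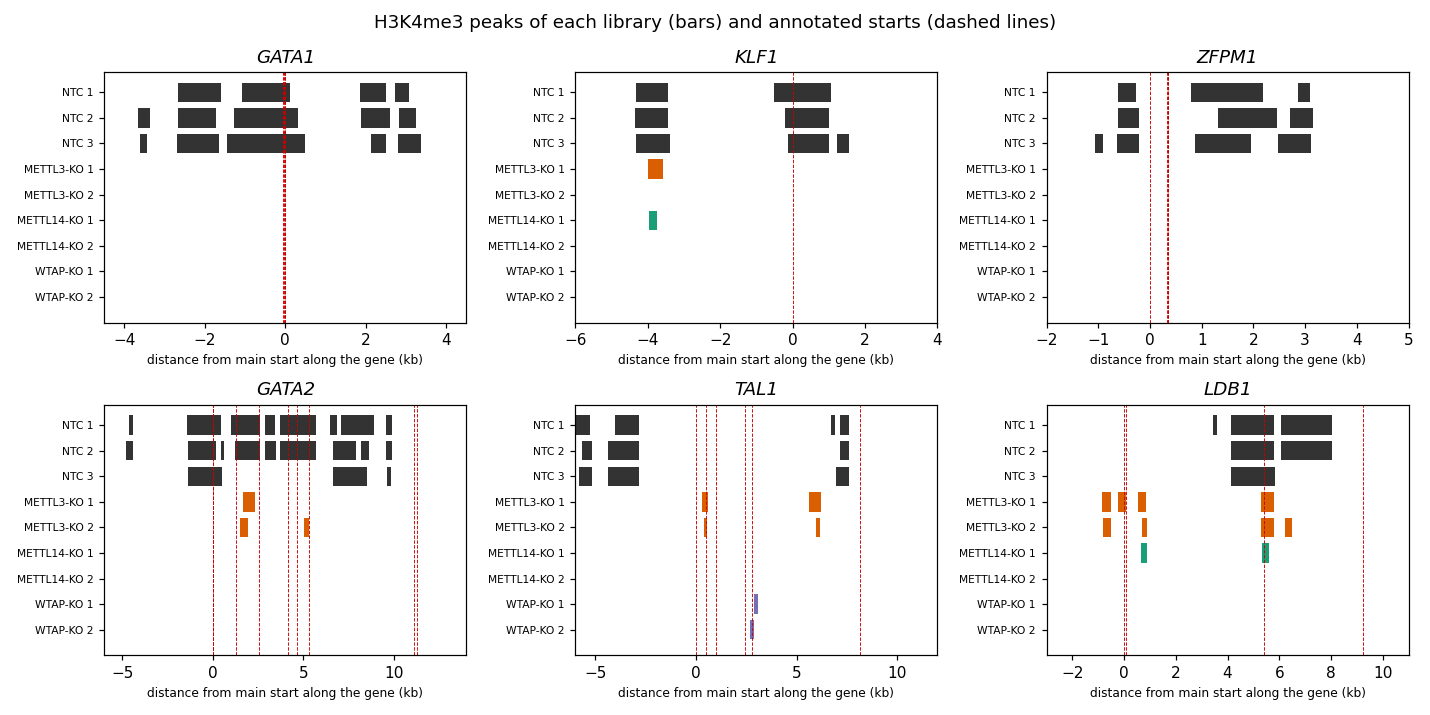
H3K4me3 peaks as bars, 1 row per library, against distance from the main start along the gene in kb, with annotated starts as dashed lines, for GATA1, KLF1, ZFPM1, GATA2, TAL1 and LDB1. No KO bar stands at GATA1, ZFPM1 or the KLF1 start, the KO bars of TAL1 lie away from the NTC bars, and those of LDB1 lie both at an internal start shared with NTC and around the main start, where NTC has none.

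GFI1B, a repressor needed for red cell and platelet formation, had 1686, 4428 and 3308 in NTC (3141 ± 1379, SD, n = 3), 2783 and 166 in METTL3-KO and no peak in METTL14-KO or WTAP-KO. METTL3-KO and NTC overlapped (46.9% of the NTC mean, limma adjusted p = 0.135), while the call for all KO groups passed (adjusted p = 0.00119). Within 5 kb METTL3-KO and NTC did not overlap and GFI1B was lower in METTL3-KO (log2 change -0.94, adjusted p = 0.0464). The values of 1 gene again came from different regions. The one in all 3 NTC libraries, chr9:135818914-135820029 (summed signals of 2544, 2542 and 3308), lay over a far upstream start of GFI1B and also over a start of the neighbour TSC1, so that the mark cannot be told apart between these genes. The region over the main start, chr9:135853764-135854651, had 4428 in NTC replicate 2 and 258 in METTL3-KO replicate 1. A METTL3-KO region with no NTC peak lay just inside the gene at chr9:135854927-135856110, with 2783 and 1424 and widths of 990 and 945 bp, the widest KO peaks of the set.

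NFE2, the gene of a factor that acts at the globin locus, was the member with the least promoter signal. It had 963 in NTC replicate 1, 858 in METTL3-KO replicate 1 and 0 in the other 7 libraries. No comparison passed (limma adjusted p = 0.613 for all KO groups and 0.747 for METTL3-KO). NTC replicate 3 had a signal of 17204, exceeded in the 54 regions of the set only at LDB1, upstream of the gene at chr12:54697064-54698844, 2265 bp from its start and 2060 bp from a start of COPZ1, and no other library listed a peak there. A region inside the gene, chr12:54693347-54693875, had METTL3-KO peaks of 858 and 321 and no NTC peak.

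Within 5 kb of the starts of the 10 genes the peaks of all libraries merged into 54 regions. Of these 38 (70.4%) had NTC and no KO peaks, where 57% of the 20972 such regions of all protein-coding genes did, and 9 (16.7%) had KO and no NTC peaks, where 17.4% of all did. The other 7 had both. Of the 9 KO regions without an NTC peak 8 held METTL3-KO peaks, in both libraries for 6, and they lay at TAL1 (3), LDB1 (3), LMO2, GFI1B and NFE2. The 97 NTC peaks had a median width of 615 bp and the 28 KO peaks of 305 bp. Of the NTC peaks 21 were wider than 1500 bp and of the KO peaks none, the widest KO peak being 990 bp. KO peaks were also narrower over the whole lists. There the median widths were 658 to 670 bp in NTC, 454 and 424 bp in METTL3-KO and 329 to 356 bp in METTL14-KO and WTAP-KO. The widest KO peaks of the whole lists measured 1996 to 2000 bp. Whether the regions without an NTC peak lay within NTC domains wider than 2000 bp was not tested.

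Set against METTL14-KO and WTAP-KO, 4 of the 10 genes were higher in METTL3-KO (29.5% of all genes), namely GATA2 (log2 difference 5.18, SE 0.36, limma adjusted p = 9.8e-05), TAL1 (2.58, SE 0.55, adjusted p = 0.0147), LDB1 (4.60, SE 1.02, adjusted p = 0.0172) and GFI1B (4.62, SE 1.02, adjusted p = 0.0174). The median log2 difference was 2.37 for the 10 and 1.71 for all genes. For GATA2 and GFI1B the other groups were all at 0, so that the size of the difference depends on the pseudocount of 30.1. Without METTL3-KO replicate 1 only 2 of the 10 and 2389 of all genes, in place of 3622 in either direction, were called, the replicate block gave GFI1B an adjusted p of 0.0718, and with weaker peaks than the median NTC peak left out none of the 10. LDB1 was also not called without METTL3-KO replicate 2 (adjusted p = 0.0581).

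The members spanned the range of NTC promoter signals. Among the marked promoters of each NTC library LDB1 stood at percentiles 98.4, 98.5 and 80.2, GATA2 at 81.2, 80.1 and 75.6 and KLF1 at 81.5, 73.7 and 78.6. GATA1 stood at 31.3, 31.7 and 28.9 and ZFPM1 at 33.2, 19.9 and 21.6. TAL1 stood at 12.8 to 17.6 and LMO2 at 2.30 to 13.7, near the bottom. KLF1 and GATA2 cannot be ordered, since their NTC ranges overlapped, and the same holds for GATA1 against GFI1B and for GFI1B against ZFPM1.

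**Figure D3:**
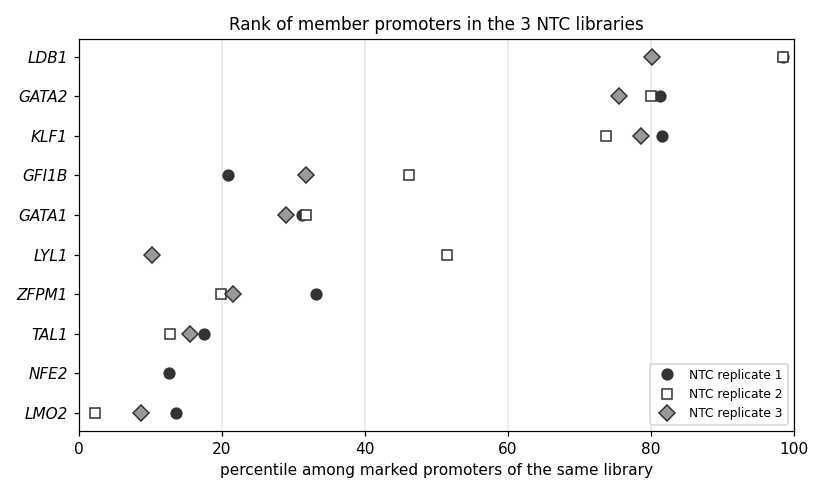
Percentile of each gene's promoter signal among all marked promoters of the same NTC library, 1 symbol per library. LDB1, GATA2 and KLF1 stand between 73.7 and 98.5, and LMO2 and NFE2 at 13.7 or below.

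The KO share of marked promoters rose with NTC signal over all genes, so the members were read against genes of like signal, in deciles of NTC mean over the 8495 genes with a peak in all 3 NTC libraries. KLF1 and GATA2 fell in decile 9, where 90.1% of genes had a METTL3-KO peak, 53.1% a METTL14-KO peak and 31.3% a WTAP-KO peak. Thus KLF1, with none in any KO group, was in the minority of its decile for METTL3-KO and METTL14-KO, and GATA2, with METTL3-KO peaks only, was in the majority for METTL3-KO. GATA1 and ZFPM1 fell in decile 3, where 23.1%, 6.71% and 1.65% had a peak, and were like most of their neighbours in having none. TAL1 fell in decile 2, where 9.89% had a METTL3-KO peak and 2.47% a WTAP-KO peak, and it had both. LDB1 fell in decile 10, where 67.9% had a WTAP-KO peak and it had none.

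**Figure D4:**
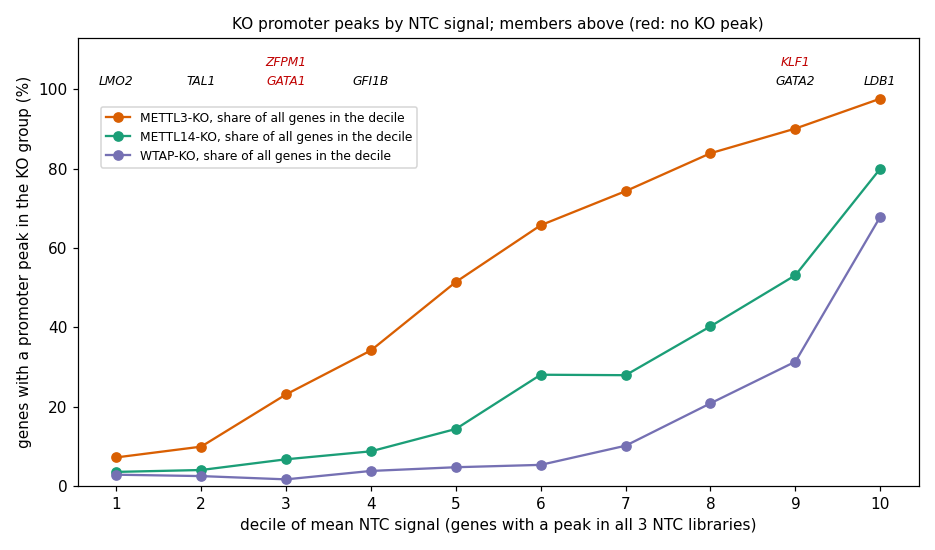
Share of genes with a promoter peak in each KO group (%) by decile of mean NTC signal, over genes with a peak in all 3 NTC libraries, with the members named above their decile (red for those with no KO peak). In decile 9 the METTL3-KO share is 90.1% and KLF1 has no KO peak, while in decile 3, with GATA1 and ZFPM1, it is 23.1%.

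As a further description, chosen after these values were seen, genes were divided by the CpG number of the promoter window. Of the 10 members 5 had at most 10 CpG. In decile 9, 76.4% of 72 genes with at most 10 CpG had a METTL3-KO peak, against 91.5% of 776 with more, and in decile 3 the shares were 13.3% of 83 and 24.1% of 763. Over all deciles they were 37.0% of 794 and 55.5% of 7674. KLF1, with 6 CpG, had no METTL3-KO peak, where 76.4% of its class in decile 9 had one. The part of CpG number in this was not tested.

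The proteins that work with these factors were taken as a list of 24 genes, of which 22 could be tested and 16 were lower and 3 higher in the KO groups as a whole (limma, adjusted over all genes), where 73% of all genes were lower and 14.3% higher. Their median log2 change was -3.60, where that of all genes was -5.30. In METTL3-KO 11 were lower and 3 higher (60.9% and 14% of all genes), METTL14-KO had 13 and 2 (68.8% and 8.38%), and WTAP-KO had 14 and 3 (69.7% and 6.81%). TCF12, an E-protein that pairs with TAL1, had the highest NTC mean of those that changed, 19848 ± 965 (SD, n = 3), and kept a peak in all 6 KO libraries, from 645 to 5980 (log2 change -3.74, adjusted p = 1.3e-05). RCOR1, a corepressor recruited by GFI1B, had 15225 ± 1908 and no KO peak (adjusted p = 1.3e-08). CBFA2T2 had 13469, 11808 and no peak in NTC and 481 to 3541 in KO (adjusted p = 0.782).

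The 3 partners that were higher were BACH1, RUNX1 and RBBP4, the last 2 named after their values were seen. BACH1, which competes with NFE2 for its sites, had 2435, 2730 and 1989 in NTC, 20702 and 10560 in METTL3-KO, 10712 and 7142 in METTL14-KO and 8495 and 10103 in WTAP-KO. Every KO library was above every NTC library (log2 change 2.15, limma adjusted p = 0.000282). RUNX1, a partner of GATA1 in megakaryocytes, had 966, 622 and 732 in NTC and 1268 to 7726 in KO (log2 change 2.40, adjusted p = 0.00442). RBBP4, of histone deacetylase complexes, was listed at 0 in NTC and at 507 to 5438 in KO, so that it was tested only through its KO peaks. Whether wider NTC peaks were missing from the lists at these genes was not tested.

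Of 20 genes that the factors are known to activate in red cell precursors, 11 could be tested, of which 5 were lower and 3 higher in the KO groups as a whole (73% and 14.3% of all genes), with a median log2 change of 0.17 where that of all genes was -5.30. That median was the value of HBG2, named after its values were seen (limma adjusted p = 0.899). HBG2 had 96.6 in NTC replicate 2, 1033 in METTL3-KO replicate 1 and no other peak. Only 5 of the 20 had a peak in all 3 NTC libraries, and these were the 5 that were lower. In METTL3-KO 4 were lower and 3 higher (60.9% and 14% of all genes), and METTL14-KO and WTAP-KO each had 5 lower and 2 higher (68.8% and 8.38%, and 69.7% and 6.81%, of all genes). The 5 were EPOR, UROS, KEL, EPB42 and HBE1. EPOR, the erythropoietin receptor, had 8281, 7713 and 9594 in NTC and no KO peak (limma adjusted p = 1.3e-08). UROS, an enzyme of heme synthesis, had 883, 8092 and 7378 in NTC and 306 to 2008 in METTL3-KO and METTL14-KO, with none in WTAP-KO (adjusted p = 0.00308). ANK1, the red cell membrane ankyrin, had no NTC peak and 2025 to 12838 in the 6 KO libraries (adjusted p = 3.9e-06), and the other 2 higher genes, BCL2L1 and GYPB, named after their values were seen, also had no NTC peak. All 3 were thus tested only through their KO peaks, with no NTC spread. BCL2L1 had no peak in METTL3-KO replicate 1 and 1523 to 11276 in the other KO libraries. GYPB had 2646 and 694 in METTL3-KO, 340 in WTAP-KO replicate 2 and no other peak. Whether wider NTC peaks were missing from the lists at these genes was likewise not tested.

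The genes whose levels over the 9 libraries were nearest to the median of the 10 members, by Euclidean distance on the log2(signal + 30.1) scale, were H2BC18 (0.355), ZNF134 (0.519) and SLC4A11 (0.521). H2BC18, a histone gene, had 2032, 2951 and 2598 in NTC, 492 in METTL3-KO replicate 1 and no peak in the other 5 KO libraries, where the member median was 2109, 3515 and 2523, then 588, then 0.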

How the data were processed

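H3K4me3 CUT&RUN libraries of HEL cells were grouped by GEO's labels. The authors aligned paired reads to hg19 and to a yeast spike-in genome (sacCer3) with Bowtie, removed duplicates with Picard, and called peaks per library by a published CUT&RUN protocol; versions and the calling threshold are not given in the sources used here. They deposited a peak list per library whose column 4 is a calibrated signal, never negative. The depth of the libraries is unknown, and precision is limited by their number. Starts were read as counted from 0 and are printed from 1.

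Starts were those of all GENCODE transcripts of each protein-coding gene on GRCh37. Levels were compared as log2(signal + 30.1), the pseudocount being the smallest signal above 0, with limma 3.58.1 (lmFit, eBayes with trend; R 4.3.3) over 12037 genes with a peak in at least 2 libraries, 9 libraries and 4 groups in 1 model, with Benjamini-Hochberg adjustment over all genes and a threshold of 0.05. On this scale the folds of weakly marked genes are understated. The fit was tested on simulated data. Alternatives were the window, the starts, summed peaks, the pseudocount, the signal threshold, scaling and centring, the replicate block and leaving out each library. Regions were peaks sharing at least 1 base. Tables were made with Python 3.11.15 and pandas 2.3.3.

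The members and the gene lists were chosen with earlier results of these data known. Named were all 10 members, the targeted genes, from the partner and target lists the highest NTC means among changed genes and the genes with peaks in the most KO libraries, and the 3 genes nearest to the member median. Some items are not reported here.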

Additional observations from a re-analysis of the deposited data

Results flagged for a closer look

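The KO groups differed from each other for 4 of the 10 genes, by a limma test of the difference between METTL3-KO and the average of the other KO groups. In the same test 29.5% of the 12037 genes were higher in METTL3-KO, and the median log2 difference of all genes was 1.71. The log2 difference was 5.18 for GATA2 (adjusted p = 9.8e-05), 2.58 for TAL1 (adjusted p = 0.0147), 4.60 for LDB1 (adjusted p = 0.0172) and 4.62 for GFI1B (adjusted p = 0.0174), each higher in METTL3-KO. Without METTL3-KO replicate 1 only 2 of these calls were made, the adjusted p being 0.105 for TAL1 and 0.104 for LDB1, and with peaks that span a start GATA2 and GFI1B no longer passed (adjusted p = 0.241 and 0.271). Without METTL3-KO replicate 2 LDB1 also missed (0.0581), and with a pseudocount 10 times as large GFI1B did (0.0869). With signals divided by the step TAL1 and LDB1 no longer passed (0.0638 and 0.0613), nor with centring (0.0711 and 0.0703). The step was 0.461 and 1.07 in METTL3-KO against 0.320 to 0.440 in the other KO libraries.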

How the results depend on the processing

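Of the values of single genes, 780 held in direction and in passing or missing the threshold under the alternatives, 62 lost and 12 gained a call, and 14 reversed. With peaks that span a start, the log2 change of TAL1 was 1.46 over all KO groups, 3.71 in METTL3-KO and 0.66 in WTAP-KO, and that of LMO2 in METTL3-KO was 0.58. With starts of protein-coding transcripts these were 1.99, 3.71, 2.27 and 0.58. NTC then had no TAL1 peak, so that TAL1 was tested in these settings only through its KO peaks. LMO2 in METTL3-KO ranged from -4.40 to 0.20 when single libraries were left out (0.20 without METTL3-KO replicate 2), TAL1 in WTAP-KO was 0.14 with libraries centred on genes marked in all 9, and NFE2 in METTL3-KO was -0.52 within 5 kb and ranged from -0.081 (without NTC replicate 2 or 3) to 3.20 with single libraries left out. The METTL3-KO calls of TAL1 and LDB1 were lost with the signal divided by the step (adjusted p = 0.337 and 0.145), with centring (0.986 and 0.393), with a pseudocount 0.1 times as large (0.0681 and 0.132), for LDB1 with summed peaks (0.0777), and when single libraries were left out (for LDB1, 0.0538 and 0.053 without NTC replicates 1 and 2 and 0.0585 and 0.0889 without METTL3-KO replicates 1 and 2). LYL1 in METTL3-KO passed without NTC replicate 1 (adjusted p = 0.0009) and GFI1B without METTL3-KO replicate 1 (0.00116), and within 5 kb LYL1 in each KO group and LMO2 and GFI1B in METTL3-KO passed. Members called for METTL3-KO against METTL14-KO and WTAP-KO fell from 4 to 2 with peaks that span a start, with centring or by the step and to 0 with peaks no lower than the median NTC signal, and all genes called from 3622 to 2147, 2190, 2082 and 888. With that signal minimum 5 members were called over all KO groups, 4 in METTL14-KO and 4 in WTAP-KO. TAL1, LMO2 and LYL1 were then among the members with too few peaks to be tested. Of the 8692 genes tested in that setting 7811 were called over all KO groups, 6127 for METTL14-KO and 6099 for WTAP-KO. With peaks that span a start 5 members were called in METTL14-KO and 5 in WTAP-KO, and LYL1, NFE2 and ZFPM1 could not be tested. Of the 9351 genes tested there, 6511 were called in METTL14-KO and 6389 in WTAP-KO. The mean number of members with a promoter peak was 9.67 in NTC within 5 kb, 5.67 with peaks that span a start, 7.33 with protein-coding starts and 5.67 with the signal minimum; it was 3.5 in METTL3-KO and 0.5 in WTAP-KO with peaks that span a start and 0.5 and 0 with the minimum. Leaving out single libraries gave 7 to 8 members called over all KO groups (9 with all libraries), 4 to 7 in METTL3-KO, 7 to 8 in METTL14-KO, 7 to 8 in WTAP-KO, and 2 to 4 for METTL3-KO against the other KO groups, where all genes called ranged from 2389 to 4378. The cause of these changes was not tested.

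Same-numbered libraries did not deviate together (mean r = 0.00586 over 12 pairs, from -0.0578 to 0.095), so the numbers were not taken as pairs. With the replicate block 10002 genes were called over all KO groups, 8756 in METTL3-KO, 9329 in METTL14-KO and 9414 in WTAP-KO, 2746 were called for METTL3-KO against the other KO groups, and NFE2 in METTL3-KO was -0.081. The block ended 3 calls, LYL1 over all KO groups (adjusted p = 0.135), TAL1 in METTL3-KO (0.0506) and GFI1B between METTL3-KO and the other KO groups (0.0718).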
